A study of Mus musculus with 2 samples.

Results

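Mir335, Mir483, Mir675, Mir296 and Mir298 are microRNA (miRNA) genes that lie in or beside imprinted genes other than those of the Dlk1-Dio3 region. They were taken by name from the mouse annotation and make up 5 of the 1973 miRNA gene rows of the count tables. All 5 had a row, and all 5 had enough counts to be tested. The libraries came from whole liver of B6NCrl mouse embryos at embryonic day 16.5, when the liver forms blood cells as well as developing hepatocytes. The study held 1 group of 2 biological replicates, and both were pools of livers from healthy embryos of both sexes. For replicate 2 the livers of 41 embryos were pooled, and the labels give no such number for replicate 1. Pooling hides the spread between embryos, so the spread given here is between pools. With 1 group there was no contrast between conditions, and the question was how abundant these miRNAs were and how far the pools differed.

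Imprinted genes are transcribed mainly or only from the allele of 1 parent, and several of them control fetal growth. Mest and Igf2 are expressed from the paternal allele and H19 from the maternal allele. The Gnas locus holds transcripts of either parental origin, and the miRNAs beside it are known in mouse as paternally expressed. An miRNA is cut from a hairpin in its host transcript, and the short mature strand from either arm can then guide repression of messenger RNAs through its seed, bases 2 to 8 from the 5′ end. Reads were counted per hairpin, so a count does not say which arm or which parental allele it came from.

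The 10 mature arms of the 5 genes are shown because the seed decides which messenger RNAs an arm can pair with. They are RefSeq sequences on GRCm38.p6, the assembly of mm10, written 5′ to 3′ with the seed in capitals.
miR-335-5p: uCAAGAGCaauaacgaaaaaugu
miR-335-3p: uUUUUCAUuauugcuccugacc
miR-483-5p: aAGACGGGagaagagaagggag
miR-483-3p: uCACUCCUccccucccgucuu
miR-675-5p: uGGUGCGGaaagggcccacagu
miR-675-3p: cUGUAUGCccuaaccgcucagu
miR-296-5p: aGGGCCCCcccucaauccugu
miR-296-3p: gAGGGUUGgguggaggcucucc
miR-298-5p: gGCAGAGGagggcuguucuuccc
miR-298-3p: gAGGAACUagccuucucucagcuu
No seed was shared between any of these 10 arms, nor with any other of the 1679 mature miRNA names in the RefSeq table. None of the 10 mature sequences occurred in the hairpin of another listed gene, and the 5 hairpins shared 0% of their 18-base words with other listed genes. Counts of the members are therefore not split with a near-identical listed gene. A match elsewhere in the genome was not looked for.

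Together the 5 genes held 3.45% of all sense-strand miRNA counts in replicate 1, with an exact (Clopper-Pearson) 95% interval of 3.43% to 3.46%. They held 3.75% of those of replicate 2, with an interval of 3.73% to 3.77%. The mean was 3.599% ± 0.215 (SD, n = 2), of totals of 5930074 counts in replicate 1 and 5102289 in replicate 2. Mir335 alone made up 84.0% of the members' counts in replicate 1 and 88.4% in replicate 2. The other 4 genes together held 0.551% and 0.436%. Intervals cover counting error only and leave out the spread between pools. They also take reads as independent, which PCR copies are not.

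Mir335 (ENSMUSG00000065501.1; chromosome 6, 30741299 to 30741396, plus strand, mm10) lies in an intron of Mest, on the same strand and 17752 bases from the start of that gene. Its miRNA is known for restraining invasion of tumour cells. The library of replicate 1 had 171769 counts of it and that of replicate 2 had 169134. In CPM, the usual unit of counts scaled so that every library has the same total of 1000000, these came to 28966 CPM and 33149 CPM, a mean of 31057 ± 2958 CPM (SD, n = 2), or 18584 CPM with multimapping reads in the total. Mir335 ranked 5 among all rows in both libraries. The rows closest to it in level over the 2 libraries were Mir411 of the Dlk1-Dio3 region (26079 and 28826 CPM) and Mirlet7i (24544 and 28208 CPM), both below it in each library.

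Mir483 (ENSMUSG00000070140.1; chromosome 7, 142654924 to 142654996, minus strand) lies in an intron of Igf2, which encodes the main fetal insulin-like growth factor, and of the overlapping gene Gm49394. miR-483-3p is known to repress a pro-apoptotic gene. Mir483 had 13913 counts in replicate 1 and 9249 in replicate 2, or 2346 and 1813 CPM. It was the second most abundant of the 5 genes, at rank 61 of all rows by its mean of 2079 ± 377 CPM (SD, n = 2). Its level was 12.3-fold below that of Mir335 in the first pool (replicate 1) and 18.3-fold below in the other.

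Mir675 (ENSMUSG00000076275.1; chromosome 7, 142577064 to 142577147, minus strand) lies in an exon of H19, a long noncoding RNA, 77.8 kb from Mir483 on the same strand. Its miRNA is known to limit placental growth and to repress the Igf1 receptor. It had 737 counts in replicate 1 and 641 in replicate 2, or 124 and 126 CPM, and was the lowest of the 5 genes in both libraries. Its mean was 125 ± 0.953 CPM (SD, n = 2), at rank 173. The counting interval of a single library was wider than this spread, at 115 to 134 CPM in replicate 1 and 116 to 136 CPM in replicate 2. The fold of Mir483 over Mir675 was 18.9 in replicate 1 and 14.4 in replicate 2. All such folds between genes are folds of read counts, not of molecules.

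Mir296 (ENSMUSG00000065521.1; chromosome 2, 174267047 to 174267125) and Mir298 (ENSMUSG00000065410.1; chromosome 2, 174267504 to 174267585) lie 378 bases apart on the minus strand. Neither hairpin overlaps another annotated gene on either strand in GENCODE M21. The nearest transcripts of the Gnas locus are Nespas, the antisense RNA of Nesp, which is 14.1 kb from Mir296 and 13.7 kb from Mir298 and on the same strand as both, and Gnas itself, on the opposite strand and 17.2 and 16.7 kb away. For these genes the word host therefore means the locus and not an annotated overlapping gene. miR-296 has been linked to the growth of blood vessels and to the repression of pluripotency genes, and miR-298 to the repression of Bace1.

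Mir296 had 9828 counts in replicate 1 and 6547 in replicate 2, or 1657 and 1283 CPM, with a mean of 1470 ± 265 CPM (SD, n = 2) at rank 74. Mir298 had 8186 and 5833 counts, or 1380 and 1143 CPM, with a mean of 1262 ± 168 CPM at rank 79. The CPM ranges of the pair overlapped between libraries. Within each library Mir296 was the higher, with a fold over Mir298 of 1.201 in replicate 1 and 1.12 in replicate 2. On the log2 scale the mean of this fold was 0.215 ± 0.069 (SD, n = 2). With 2 pools the order of the pair was not tested. The fold of Mir483 over Mir296 was 1.42 in replicate 1 and 1.41 in replicate 2, with no overlap of ranges. Mir298 exceeded Mir675 by 11.1-fold and 9.09-fold, again without overlap.

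**Figure D1:**
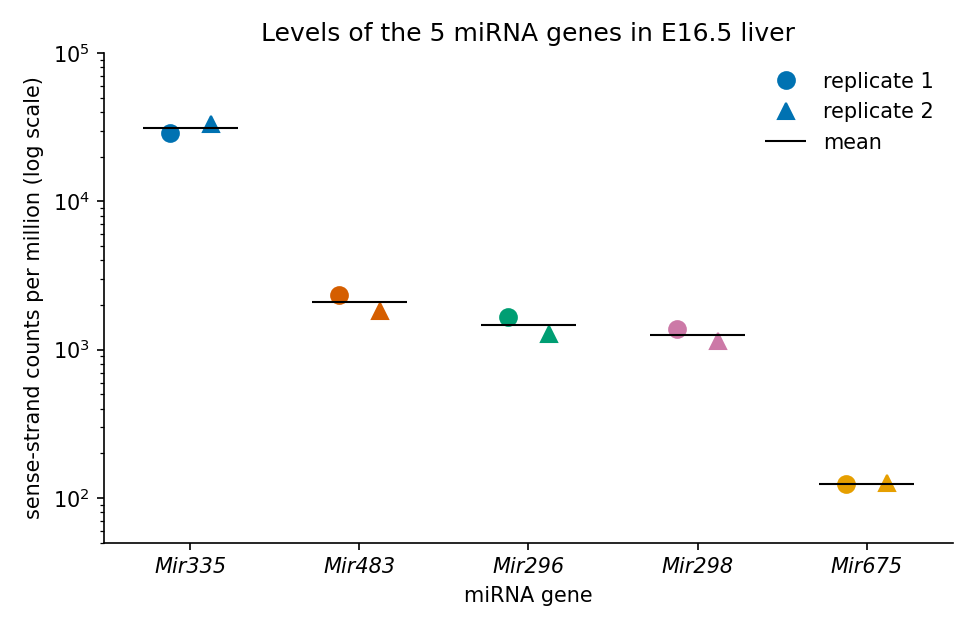
Sense-strand CPM of the 5 miRNA genes on a log axis, with a circle for replicate 1, a triangle for replicate 2 and a line at their mean. Mir335 lies near 31057 CPM, Mir483, Mir296 and Mir298 between 1143 and 2346 CPM, and Mir675 near 125 CPM.

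The order Mir335, Mir483, Mir296, Mir298, Mir675 also held per 100 bases of hairpin in each library. On that scale the levels of replicate 1 were 29557, 3214, 2098, 1683 and 148 CPM per 100 bases, and those of replicate 2 were 33825, 2483, 1624, 1394 and 150. An miRNA read covers a mature strand and not the whole hairpin, so the level per gene is the one used elsewhere. The rows closest in level were Mir433 and Mir15b for Mir483, Mir222 and Mir449a for Mir675, Mir361 and Mir134 for Mir296, and Mir532 and Mir324 for Mir298. Of the 10 rows named as closest to a member, 3 lie in the Dlk1-Dio3 region (Mir411, Mir433 and Mir134) and none is another member. Likeness was the distance in log2(CPM + 0.5) over only 2 libraries, so it describes level and little else.

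No other miRNA gene row lay within 50 kb of Mir335, Mir483 or Mir675. The only row other than a member near the Mir296 and Mir298 pair was Gm27591, with 0 counts in both libraries, which allows up to 0.506 CPM in replicate 1 and 0.588 CPM in replicate 2. Counts on the opposite strand were near 0 at all 5 members. Mir335 had 1 opposite-strand count in replicate 1 and 3 in replicate 2, and the other 4 genes had 0. This was usual at their depth: of the 174 rows with at least as many counts as Mir675, 148 had no opposite-strand count in either library, although over all rows 8.13% of counts in replicate 1 and 8.22% in replicate 2 were on the opposite strand.

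The hairpins differed in base composition and in predicted stability. Those of Mir335 and Mir675 are shown because they are the most and the least abundant members and have the least and the most stable predicted fold of the 5 per 100 bases. Capitals mark the 2 annotated mature arms.
Mir335: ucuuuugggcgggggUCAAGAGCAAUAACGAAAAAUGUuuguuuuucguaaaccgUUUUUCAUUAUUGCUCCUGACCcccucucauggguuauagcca
Mir675: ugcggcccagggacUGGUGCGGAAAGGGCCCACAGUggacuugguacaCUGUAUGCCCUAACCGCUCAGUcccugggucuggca
G and C made up 42.9% of the Mir335 hairpin, 53.7% of Mir298, 58.9% of Mir483, 63.1% of Mir675 and 63.3% of Mir296. Over the 183 genes whose mean level reached 100 CPM, the median was 50%, with quartiles at 43.8% and 56%. Mir483, Mir675 and Mir296 thus lay above the upper quartile and Mir335 below the lower one.

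The minimum free energy computed with RNAfold, a measure of how firmly an RNA is predicted to fold, was -45.2 kcal/mol per 100 bases for Mir335 and -46.3 for Mir483. It was -52.1 for Mir298, -54.7 for Mir296 and -66.7 for Mir675. The median of the 183 genes was -43.4, with quartiles at -47.7 and -39.8. The Mir675 hairpin was the most stable of the 183 by this measure, and 9.34% of the other genes were more stable than Mir296 and 14.8% more stable than Mir298. The Mir335 and Mir483 hairpins lay within the quartiles. These are properties of the sequences, computed after the levels were known, and they were not tested against level.

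**Figure D2:**
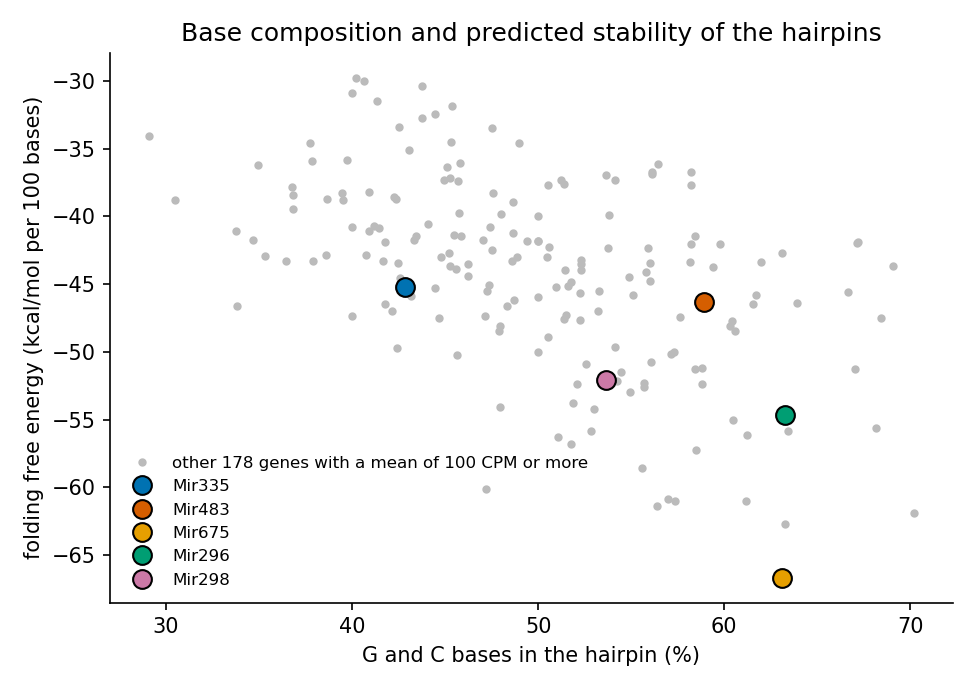
Share of G and C bases in each hairpin (horizontal, percent) against its predicted folding free energy per 100 bases (vertical, kcal/mol, more negative is more stable) for genes whose mean level reached 100 CPM. Mir675 is the lowest point at -66.7, and Mir335 lies at 42.9% on the G and C axis.

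Between the libraries, Mir483, Mir296 and Mir298 were lower in replicate 2, Mir335 was higher, and Mir675 was not called. This compares 2 pools, not conditions. Of the 5 members, 3 were called lower and 1 higher by a two-sided exact binomial test of counts adjusted over all tested genes. The same rule called 44.5% of the 440 tested genes (27% lower and 17.5% higher in replicate 2). Among the 174 genes with at least as many counts as Mir675 it called 80.5% (51.7% lower and 28.7% higher). A call of 4 in 5 members is thus close to what genes of this depth gave. The test sees counting error and not the spread between pools. Under scaling by trimmed mean of M-values (TMM) or by DESeq2 size factors, the split of all calls moved from 77 higher and 119 lower to 98 higher and 97 lower, and the members' calls kept their direction.

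Mir483 fell by 0.37 on the log2 scale (counting SE 0.02), so that replicate 1 was 1.29-fold above replicate 2 (exact binomial adjusted p = 2.07e-82). Mir296 fell by 0.37 (counting SE 0.02; exact binomial adjusted p = 1.05e-57) and its neighbour Mir298 fell by 0.27 (counting SE 0.02; exact binomial adjusted p = 1.36e-27). Mir335 was 1.14-fold higher in replicate 2, a log2 ratio of 0.19 with a counting SE of 0.005, and its exact binomial adjusted p rounded to 0 at computer precision. Mir675 had a log2 ratio of 0.02 with a counting SE of 0.08 (exact binomial adjusted p = 0.922). The median log2 ratio of all tested genes was -0.08, and relative to it the values were 0.27 for Mir335, -0.29 for Mir483, -0.29 for Mir296, -0.19 for Mir298 and 0.09 for Mir675.

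Over the 183 genes whose mean level reached 100 CPM, the SD of the log2 ratio was 0.47 (0.29 without Mir215, the gene with the largest ratio) and the median of its absolute value 0.201. A larger absolute ratio was found in 22.0% of the other genes for Mir483, 22.5% for Mir296, 36.3% for Mir298, 51.6% for Mir335 and 92.9% for Mir675. The common biological coefficient of variation between the pools, estimated with edgeR over the tested genes, was 0.229. Mir483 and Mir296 lay below the lower quartile of the 183 genes (-0.29), Mir335 above the upper quartile (0.09), and Mir298 and Mir675 between them.

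**Figure D3:**
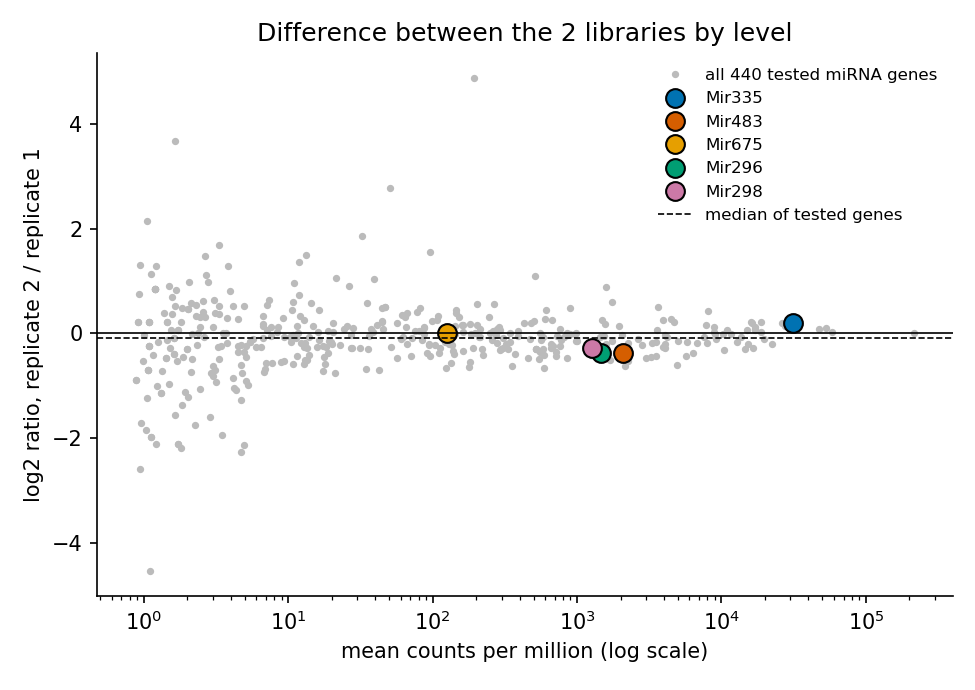
Log2 ratio of replicate 2 over replicate 1 against mean CPM (log axis) for the 440 tested genes, with the 5 members as large circles and the median of the tested genes as a dashed line at -0.08. The members lie between -0.37 and 0.19, inside the cloud of genes of like level.

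Judged against counting error only, the miRNAs of a locus did not all shift by the same amount between these 2 pools. In the Gnas locus, the log2 ratio of Mir296 over Mir298 was 0.26 in replicate 1 and 0.17 in replicate 2, a difference of -0.10 (95% counting interval -0.16 to -0.03). In the Igf2 and H19 domain, the log2 ratio of Mir483 over Mir675 was 4.24 in replicate 1 and 3.85 in replicate 2, a difference of -0.39 (95% counting interval -0.55 to -0.23). Mir483 on chromosome 7 and Mir296 on chromosome 2 kept a log2 ratio of 0.50 in both libraries, with an interval of the difference from -0.06 to 0.06. These intervals hold counting error only and take reads as independent, and with 2 pools the spread of such ratios between pools was not tested. Single genes of 100 CPM or more, Mir215 left out, had log2 ratios between the libraries with an SD of 0.29. The same differences were not computed for other pairs of genes, so they are not read as a trait of these loci. In bulk tissue, fewer cells of a type and less RNA per cell cannot be told apart.

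Among the other imprinted miRNAs, the Dlk1-Dio3 region held 53 rows on its plus strand and 16.0% ± 0.94 (SD, n = 2) of the counts, against 3.599% ± 0.215 in the 5 members. Of its 46 tested rows, 32 were called lower and 3 higher in replicate 2, and 11 were not called, beside 27% lower and 17.5% higher over all tested genes and 51.7% and 28.7% among those as deep as the members. With TMM or DESeq2 scaling, 30 were lower, 6 higher and 10 not called. With totals as scaling, their median log2 ratio was -0.21, beside -0.27 in the 5 members and -0.08 over all tested genes. Of its rows, 38 reached 100 CPM in both libraries, as did all 5 members. Its most abundant rows were Mir411 (27453 ± 1943 CPM), Mir127 (16637 ± 2231 CPM) and Mir487b (15346 ± 1556 CPM), all below Mir335. Mir411 was higher in replicate 2, as Mir335 was (log2 ratio 0.14), while Mir127 (-0.27) and Mir487b (-0.21) were lower. A difference between the members and that region was not tested.

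**Figure D4:**
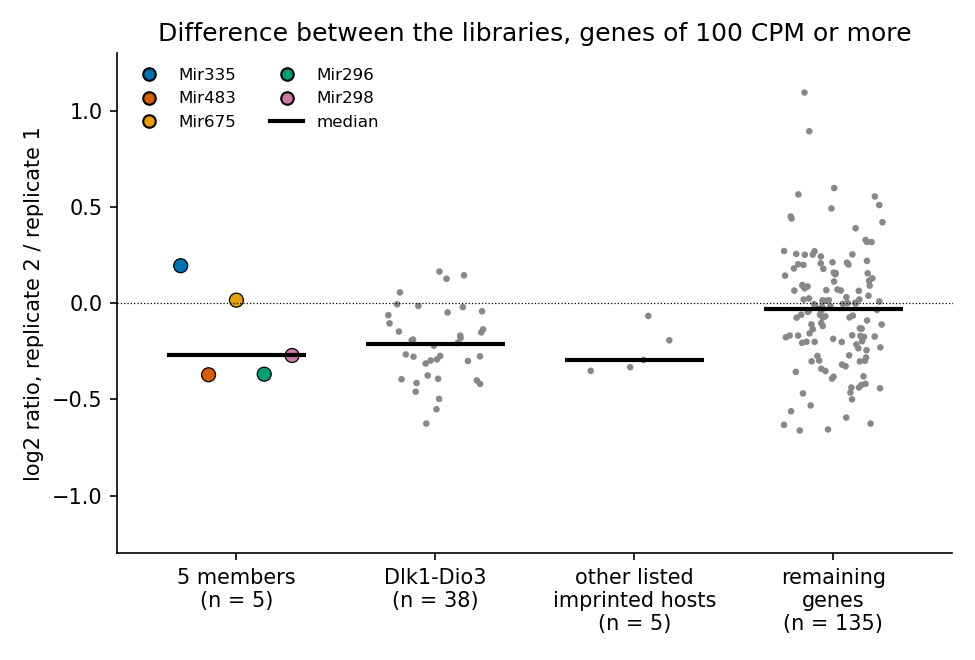
Log2 ratio of replicate 2 over replicate 1 for genes whose mean level reached 100 CPM: the 5 members, 38 Dlk1-Dio3 genes, 5 genes in other listed imprinted hosts and 135 remaining genes, with black lines at the medians. The medians are -0.27, -0.21, -0.30 and -0.03, and 1 of the remaining genes (Mir215, at 4.89) lies outside the axis. The 5 genes in other listed imprinted hosts all lie in Sfmbt2, whose miRNA rows are a family of many copies.

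Markers of the cells in the pools are given beside these differences, and their calls are to be read against the 44.5% of all tested genes, and 80.5% of those as deep as the members, that the same rule called. The libraries carried the markers of their labelled tissue: the hepatocyte list (5 genes, led by Mir122) held 22.0% and 22.2% of the counts in replicates 1 and 2, and none of its genes was at 0. Of these 5 genes, 4 were called higher in replicate 2, and the list's median ratio on the log2 scale was 0.18. Mir192 had a log2 ratio of 0.25, and Mir122, which makes up most of the sum and was also called, one of 0.01. The largest log2 ratio of the hepatocyte list was 1.85, for Mir194-1, which lay below 100 CPM in both libraries. All 5 epithelial and biliary markers were called higher in replicate 2, and their sum went from 0.427% to 0.638%. The intestine-enriched Mir215 rose from 12.6 to 376 CPM. The muscle list went from 0.130% to 0.226%, with 2 of 4 tested genes called higher and 2 of its 7 rows at 0 in both libraries. The pancreas list went from 0.140% to 0.210%, with 1 gene higher, 1 lower and 2 not called. The endothelial Mir126a rose from 4.55% to 4.85%. Of the mesenchymal list, 3 of 5 tested genes were called higher and 1 lower, and its sum went from 1.62% to 1.82%. The erythroid list went from 2.41% to 2.72%, with 2 of 3 genes higher and 1 lower, and the leukocyte list from 1.799% to 1.874%, with 1 of 5 genes higher. Of the 6 genes named for the leukocyte list 5 matched a row by name, and of the 8 named for the muscle list 7 did, so both sums leave out a named gene. The part of these cell types in the differences of the members was not tested.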

How the data were processed

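Small RNA of 2 liver pools was sequenced from total RNA; the labels give a size range below 30. The authors deposited raw counts per gene, on mm10 with GENCODE annotation M4 per the text deposited with the files. Aligner and counter: not given in the sources used here. There were 1973 gene rows, with 4 tally rows above them, and 3 count columns. The strand column with the larger total was used. Multimapping reads are in no gene count. They made up 28.1% and 28.2% of the multimapping, unmapped, no-feature and gene-counted reads together, a sum that leaves out the remaining tally row. Names and positions came from GENCODE M21 (1894 of 1973 rows matched; the others held 1 count). CPM were computed over all gene rows; a single count equals 0.169 CPM in replicate 1 and 0.196 in the other library.

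Genes reaching 10 counts in the 2 libraries together were tested with an exact conditional binomial test (SciPy 1.17.1). It was checked only on simulated counts that held counting error and no spread between pools. That check does not show how the test behaves with such spread. The p-values were adjusted by the Benjamini-Hochberg method over all tested genes and called at 0.05. edgeR's quasi-likelihood test could not be fitted, since 1 group holds no contrast. Log2 ratios used counts plus 0.5. edgeR 4.0.16 and DESeq2 1.42.0 gave other scalings, and RNAfold 2.7.2 the folding energies. A count of 0 was taken to allow 3 counts. The alternatives were another strand column, total, scaling, count minimum, pseudocount and length, and leaving out each library. Genes named were drawn mainly from the 5 members, the 2 rows closest in level to each, and the 3 highest rows of each comparison list. For the marker lists most of those highest rows are not named, and a list's sum can rest largely on a single gene. Mir215 was the single row of its list, and Mir194-1 was named, after the values were seen, for the largest ratio of its list. The members and lists were chosen with earlier results of these data known.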

Additional observations from a re-analysis of the deposited data

How the results depend on the processing

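The summed share of the 5 members was 3.599% of sense-strand counts, 3.31% of counts irrespective of strand, 4.58% without the most abundant gene in the total, 2.15% with multimapping reads in the total and 0.494% without Mir335, and it ranged from 3.45% to 3.75% when 1 replicate was left out. With multimapping reads in the total, the levels of Mir335, Mir483, Mir296, Mir298 and Mir675 were 18584, 1245, 879.9, 755 and 74.8 CPM. Of 25 alternatives for single levels, 11 moved them by more than the SD. Leaving out 1 of 2 libraries cannot do so, because each value lies closer to the mean than the SD. Those alternatives could therefore only count as unmoved. Both alternative totals moved the levels of all 5 members. Per 100 bases of hairpin, the log2 fold of Mir335 over Mir483 was 3.48 in place of 3.91 and that of Mir483 over Mir296 was 0.61 in place of 0.50. The other 10 alternatives for folds between neighbouring members, leave-one-out aside, moved them by less than the SD over libraries, and none changed the order. The log2 ratios of the 5 members kept their direction and their side of the threshold in all 40 alternatives (8 each), and that of Mir675 ranged from 0.01 to 0.10 with exact binomial adjusted p from 0.341 to 1. The count minimum and the leaving out of rows that share sequence could not change a member's ratio. The pseudocount does not enter the test. Those alternatives therefore say little about the calls, which rest on the alternatives of strand column, total and scaling. The number of genes called lay between 179 and 206, against 196, but the number tested changed with the count minimum. It was 179 called of 284 tested at 100 or more counts, 195 of 708 without a minimum and 196 of 440 in the main setting. The share called therefore depended on that minimum. No paired analysis was possible because there is only 1 group. With 2 pools the spread between pools rests on 1 difference per gene, and for Mir675 depth limits the precision of each library.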

Other observations

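The list of other imprinted hosts held 109 miRNA rows, of which 107 lie in Sfmbt2, a gene expressed from the paternal allele in the placenta, and 82 had no count in either library. The highest rows were Mir467d (662 ± 62.6 CPM, SD, n = 2), Mir467e (583 ± 18.9 CPM) and Mir467c (558 ± 95.7 CPM), below Mir298 and above Mir675, but they share sequence with other listed genes and their levels are uncertain. Outside Sfmbt2 there were 2 rows. Mir3099, in Usp29, had 49 counts in replicate 1 and 52 in replicate 2, and Gm23134, in Blcap, had 4 and 5. The rows of Sfmbt2 are a family of many copies, so their number is not a number of independent loci.

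When only bases 2 to 7 were compared, a choice made after the seeds were seen, 4 of the 10 member arms had 1 relative each. miR-335-3p shared them with miR-6986-3p, whose gene had 4 and 6 counts, miR-296-5p with miR-5621-3p (1 and 0 counts), and miR-483-3p with miR-3110-3p (0 counts in both libraries). miR-335-5p shared them with miR-7646-5p, whose gene was not matched to a row.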
